A study of Mus musculus with 4 samples.

Results

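Kinesins are motor proteins that walk along microtubules or take them apart, and the mouse genome encodes them mainly as the Kif genes. The family was taken as every gene whose single annotated symbol begins with Kif and a number, which gave 37 genes among 18193 genes with a single symbol on the array. These 37 genes were represented by 99 probe sets among the 45101 rows of the table, and each gene was described by its brightest probe set, a group of short probes that report on one transcript. A gene was tested where that probe set was above the 40th percentile of brightness. Differences and folds are on the log2(intensity + 16) scale after normalization, which understates the folds of dim genes, and a call needs an adjusted p under 0.05. By their textbook roles, 12 were classed as mitotic kinesins, 13 as transport kinesins and 12 as other kinesins.

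Mitotic kinesins build the bipolar spindle, move and align chromosomes, and organise the midzone at which a dividing cell is cut apart, and several of them are made mainly in the late part of the cell cycle. Transport kinesins carry vesicles, mitochondria and other cargo towards microtubule plus ends and are used by resting and dividing cells alike. In bone marrow, long-term haematopoietic stem cells are known to divide rarely, whereas short-term haematopoietic stem cells divide more often.

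The comparison was between long-term (LT-HSC) and short-term haematopoietic stem cells (ST-HSC) sorted from bone marrow, with 2 arrays per group. Every animal was a C57BL/6 control without the MxCre transgene (MxCre-). All received 7 injections of poly(I:C), a double-stranded RNA mimic that induces interferon, given every other day. Both groups were gated as Lin-cKit+Sca1+CD135-, with CD34- cells taken as LT-HSC and CD34+ cells as ST-HSC. Mice were 7.5 weeks old and 4 weeks past their last injection, except for ST-HSC replicate 3, whose mice were 8.5 weeks old and 3 weeks past it. The CD34+ samples carry a tissue label of LT-HSC, and they were placed in ST-HSC by title. Nothing in the labels ties replicates to different animals, so the p-values measure only the spread between these samples, which may be technical.

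Median intensity ran from 19.1 to 28.3 over the 4 arrays. On the normalized scale, the correlation across probe sets was 0.96 between the LT-HSC arrays, 0.92 between the ST-HSC arrays and 0.78 to 0.85 across groups. The transcript of Cd34, the gene of the gating marker, was at intensities of 18.3 and 23.5 on the LT-HSC arrays and 841 and 1142 on the ST-HSC arrays. Kit, the gene of a marker shared by both gates, had intensities of 397 and 382 on the LT-HSC arrays and 684 and 907 on the ST-HSC arrays. Its difference (LT-HSC minus ST-HSC, log2) of -1.01 did not pass (limma, adjusted p = 0.0501). Of 7 tested stem and progenitor cell markers, 1 was lower (Cd34) and 6 did not pass, beside 6.36% of all tested genes lower. In 3 of the 7, both ST-HSC arrays lay above both LT-HSC arrays, against 35.5% of all tested genes. Of 9 plasma cell markers, all 9 rose in LT-HSC, beside 7.97% of all tested genes that were higher. Their summed intensity was 67667 to 68404 in LT-HSC and 1757 to 3206 in ST-HSC. The ST-HSC mean of Prdm1, log2 5.02, lay just under the filter level of log2 5.03, so Prdm1 passed that filter only through LT-HSC.

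All 9 tested mitotic kinesins were lower in LT-HSC, by 3.12- to 5.31-fold in 8 of them. The other, Kif20a, was dim in LT-HSC and passed the brightness filter only through ST-HSC, so its fold is not set beside theirs. The median difference (LT-HSC minus ST-HSC, log2) of the 9 was -2.26. None of the 11 tested transport kinesins passed the test in either direction, at a median difference of 0.11 and a range of -0.80 to 0.997 (limma; Kif1c was the 1 gene at an unadjusted p under 0.05). Of the 6 tested other kinesins, 1 was lower in LT-HSC, the centriolar kinesin Kif24. The median over all 12831 tested genes was -0.07. Among these genes, 6.36% were lower and 7.97% were higher in LT-HSC at an adjusted p under 0.05 (limma, Benjamini-Hochberg). Across the family, 10 of 26 tested genes were lower, 0 were higher and 16 did not pass. Of those 10, Kif20a and Kif24 passed the filter only through ST-HSC. The difference between the classes was not itself tested. In sorted bulk samples, fewer cells of a type and less RNA per cell cannot be told apart.

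**Figure D1:**
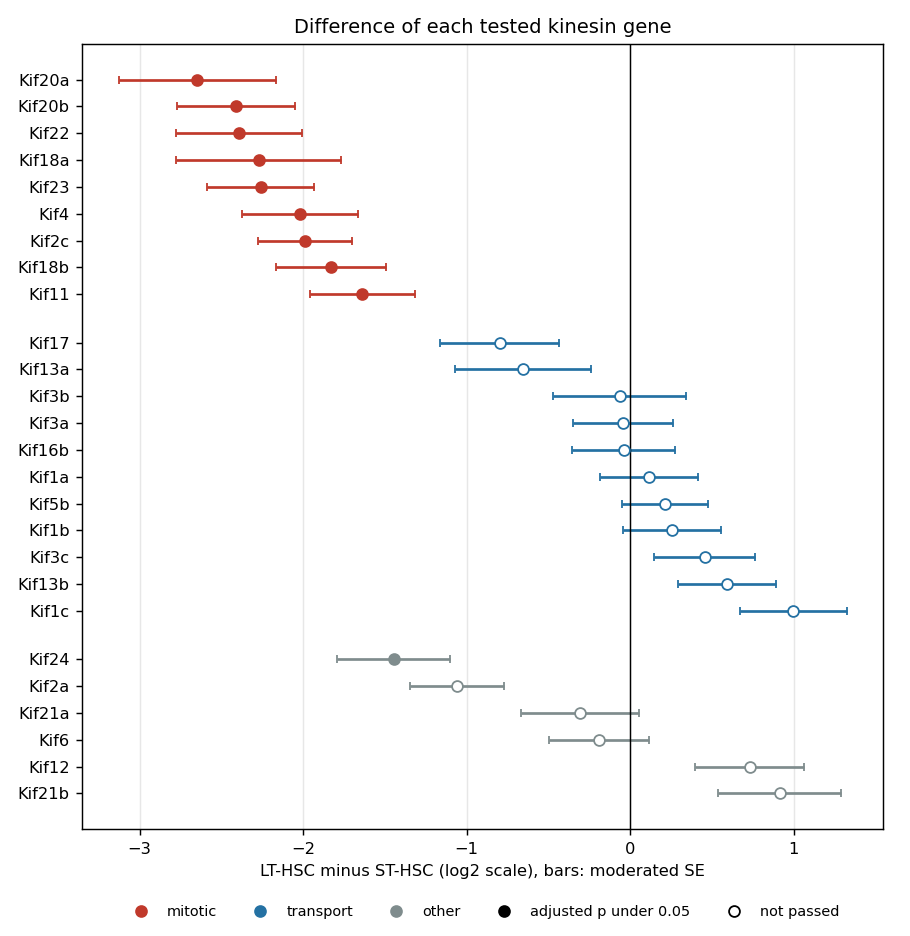
Difference between LT-HSC and ST-HSC (log2, LT-HSC minus ST-HSC, with its SE) for each of the 26 tested kinesin genes, grouped by role. The 9 mitotic kinesins lie between -2.65 and -1.64, and the 11 transport kinesins between -0.80 and 0.997.

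Promoters were compared for letters that recur among the mitotic kinesins. In textbook accounts, genes of the late cell cycle carry a cell cycle genes homology region (CHR, TTTGAA), often near a CCAAT box bound by the factor NF-Y. The sequences of 6 of the 9 lower mitotic kinesins, chosen because TTTGAA lies near their start, are printed to show where these letters lie, from 120 bases before the start to 30 after it, in GRCm38.p6 coordinates from RefSeq. Capitals mark TTTGAA or its reverse complement TTCAAA, and CCAAT or its reverse complement ATTGG. Of the lower mitotic kinesins not printed, Kif18a holds neither TTTGAA nor CCAAT in its window, and Kif2c holds TTTGAA farther from its start and no CCAAT. Kif20a had no promoter window to search. The name, position and strand precede each sequence, which reads 5′ to 3′ along the gene.
Kif11, chr19:37376262-37376411, plus strand: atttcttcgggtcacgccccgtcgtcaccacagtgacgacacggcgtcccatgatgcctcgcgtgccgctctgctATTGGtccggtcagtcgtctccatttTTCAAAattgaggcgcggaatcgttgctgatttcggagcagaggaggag
Kif18b, chr11:102925095-102925244, minus strand: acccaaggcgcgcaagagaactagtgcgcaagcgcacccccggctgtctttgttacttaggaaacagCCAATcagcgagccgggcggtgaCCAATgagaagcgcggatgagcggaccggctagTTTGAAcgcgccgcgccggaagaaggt
Kif20b, chr19:34922238-34922387, plus strand: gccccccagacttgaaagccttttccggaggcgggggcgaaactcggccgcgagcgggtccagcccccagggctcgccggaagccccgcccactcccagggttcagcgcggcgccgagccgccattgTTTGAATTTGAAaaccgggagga
Kif22, chr7:127042391-127042540, minus strand: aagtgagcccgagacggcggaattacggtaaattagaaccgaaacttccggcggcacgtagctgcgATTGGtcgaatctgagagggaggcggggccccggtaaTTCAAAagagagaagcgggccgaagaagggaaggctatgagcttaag
Kif23, chr9:61946770-61946919, minus strand: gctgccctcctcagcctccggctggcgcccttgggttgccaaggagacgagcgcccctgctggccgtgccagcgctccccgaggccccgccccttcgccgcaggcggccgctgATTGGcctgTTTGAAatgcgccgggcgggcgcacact
Kif4, chrX:100625945-100626094, plus strand: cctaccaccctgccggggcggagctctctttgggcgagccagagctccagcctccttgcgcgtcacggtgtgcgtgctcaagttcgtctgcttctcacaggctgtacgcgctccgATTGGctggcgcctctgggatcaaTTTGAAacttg

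For contrast, 2 transport kinesins are printed in the same way, Kif1c, whose window holds neither motif, and Kif3b, whose window holds CCAAT but no TTTGAA.
Kif1c, chr11:70700428-70700577, plus strand: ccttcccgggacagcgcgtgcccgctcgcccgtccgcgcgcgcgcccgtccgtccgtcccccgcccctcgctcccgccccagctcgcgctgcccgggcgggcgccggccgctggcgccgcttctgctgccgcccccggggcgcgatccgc
Kif3b, chr2:153291296-153291445, plus strand: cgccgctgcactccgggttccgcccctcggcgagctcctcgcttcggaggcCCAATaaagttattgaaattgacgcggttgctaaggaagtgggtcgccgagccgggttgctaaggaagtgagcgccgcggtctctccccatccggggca

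Counted over 31 of 37 kinesin genes with a RefSeq window (250 bases before to 50 after the start, 35 windows, both strands), TTTGAA was present in 9 of 11 mitotic windows (81.8%). It was present in 1 of 12 transport windows (8.33%), that of Kif1a, and in 2 of 12 other kinesin windows (16.7%). All 32851 windows of the table held it at 17.9%. CCAAT occurred in 7 of 11 mitotic windows (63.6%), 4 of 12 transport windows (33.3%), 4 of 12 other kinesin windows (33.3%) and 37.4% of all windows. Both motifs occurred together in 6 of 11 mitotic windows (54.5%), 0 transport windows, 2 of 12 other kinesin windows (16.7%) and 6.95% of all windows. The E2F motif, TTTCGCGC or TTTGGCGC, occurred in 2 of 11 mitotic windows (18.2%), those of Kif15 and Kif18a, against 0.813% of all windows. The CHR variants TTCGAA and TTTAAA were in 2 of 11 mitotic windows (18.2%) and 14.6% of all windows. Within 50 bases either side of the start, TTTGAA lay in 7 of 11 mitotic windows (63.6%) and 4.94% of all windows. It lay there in 1 of 12 transport windows (8.33%) and 1 of 12 other kinesin windows (8.33%). That distance was chosen after the positions were seen. A match is a description of letters, and its part in the differences was not tested.

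**Figure D2:**
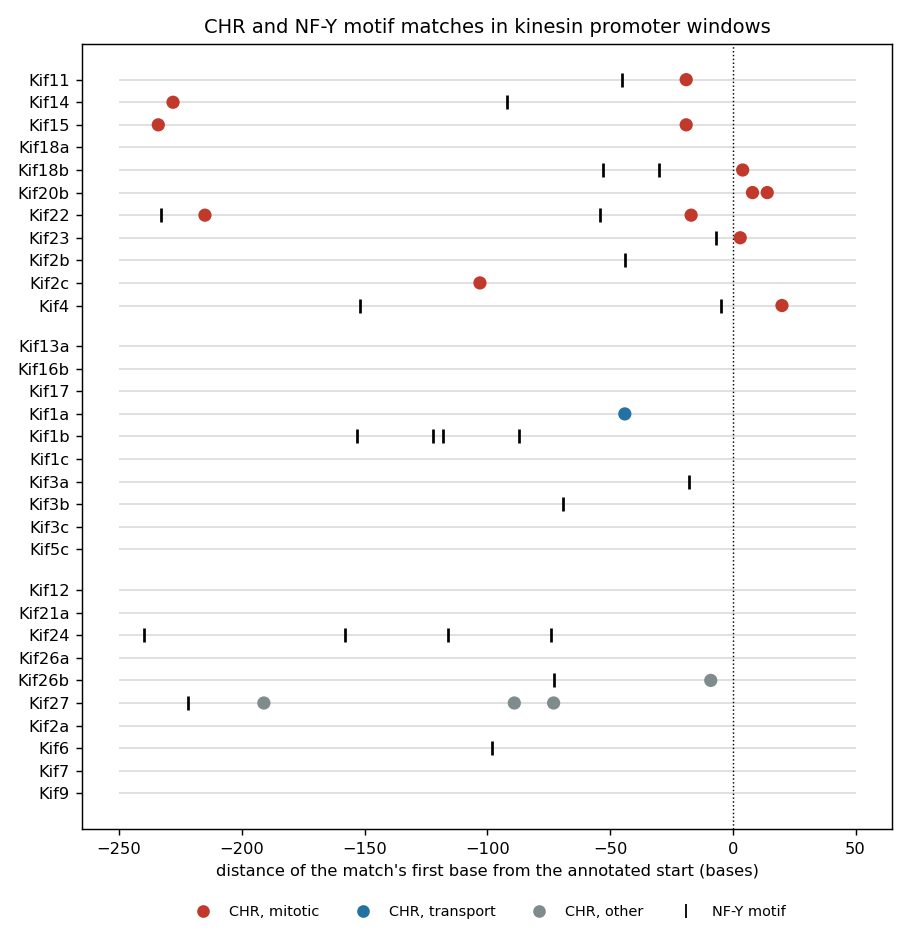
Position of motif matches in bases from the transcription start (x axis) for the kinesin genes with a RefSeq window (rows), with genes of 2 windows drawn on 1 row. The TTTGAA matches of the mitotic kinesins lie mostly near the start, and those of the transport kinesins are few.

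The tested spindle motors showed one pattern, with both ST-HSC arrays high. Kif11, a tetramer that slides antiparallel microtubules apart to keep spindle poles separate, had intensities of 36.3 and 44.0 on the LT-HSC arrays and 158 and 196 on the ST-HSC arrays. Both ST-HSC arrays were above both LT-HSC arrays. On the normalized log2 scale its mean was 5.87 ± 0.11 in LT-HSC and 7.51 ± 0.31 in ST-HSC (SD, n = 2 each), 3.12-fold lower (log2 difference -1.64, SE 0.32, adjusted p = 0.0237). Kif18a, which damps the oscillation of chromosomes at microtubule plus ends, had intensities of 5.66 and 43.0 against 123 and 238. LT-HSC replicate 1 was the lowest array and the groups did not overlap. Kif18a was 4.83-fold lower (-2.27, SE 0.51, adjusted p = 0.0345). Kif18b, which shortens astral microtubules, had intensities of 23.4 and 57.1 against 187 and 198, again without overlap, and was 3.56-fold lower (-1.83, SE 0.34, adjusted p = 0.0198). Kif2c, a depolymerase at centromeres that corrects faulty attachments, had intensities of 81.6 and 100 against 448 and 409. The arrays of each group lay close together, and Kif2c was 3.97-fold lower (-1.99, SE 0.29, adjusted p = 0.00896).

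Chromosome-bound kinesins were lower as well. Kif4, a chromokinesin that also sets the length of midzone microtubules, had intensities of 33.2 and 43.1 on the LT-HSC arrays and 178 and 276 on the ST-HSC arrays. The arrays of the groups did not overlap, and Kif4 was 4.05-fold lower (-2.02, SE 0.36, adjusted p = 0.0172). Kif22, which pushes chromosome arms away from the poles, had intensities of 298 and 675 against 1819 and 2644. LT-HSC replicate 1 was well under LT-HSC replicate 2, and both stayed under the ST-HSC arrays. Kif22 was 5.24-fold lower (-2.39, SE 0.38, adjusted p = 0.0127) at a probe set whose x suffix marks probes that may match other sequences. A probe set of Kif22 without such a suffix gave -1.74 and did not pass (adjusted p = 0.0841). The remaining tested probe set of Kif22 was lower (-2.72, adjusted p = 0.0279).

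The tested motors of the midzone and of cytokinesis were lower in LT-HSC too. Kif20a, which carries the chromosomal passenger complex to the central spindle, had intensities of 0.940 and 20.6 on the LT-HSC arrays and 104 and 209 on the ST-HSC arrays. Both LT-HSC arrays were dim. Its LT-HSC mean, log2 4.63, lay under the filter level of log2 5.03, so the fitted difference of -2.65 (SE 0.48, adjusted p = 0.019) is against a dim level and gives no firm fold. Kif20b, needed for abscission, had intensities of 22.5 and 44.5 against 211 and 321 and was 5.31-fold lower (-2.41, SE 0.36, adjusted p = 0.0101). Kif23, the motor subunit of centralspindlin, had intensities of 76.8 and 143 against 508 and 703. It was 4.79-fold lower (-2.26, SE 0.33, adjusted p = 0.00919). In each of these 3 genes both ST-HSC arrays exceeded both LT-HSC arrays.

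The other 3 mitotic members were too dim to test. Kif14, which binds citron kinase at the midbody, had intensities of 6.72 and 0.173 on the LT-HSC arrays and 8.23 and 5.18 on the ST-HSC arrays. Kif15, a spindle motor that can stand in for Kif11, had 18.9 and 14.9 against 9.28 and 8.37. Kif2b, a depolymerase related to Kif2c, had 10.3 and 14.3 against 11.69 and 4.76. The count of 9 of 9 therefore covers the mitotic kinesins bright enough to pass a filter, not all 12.

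**Figure D3:**
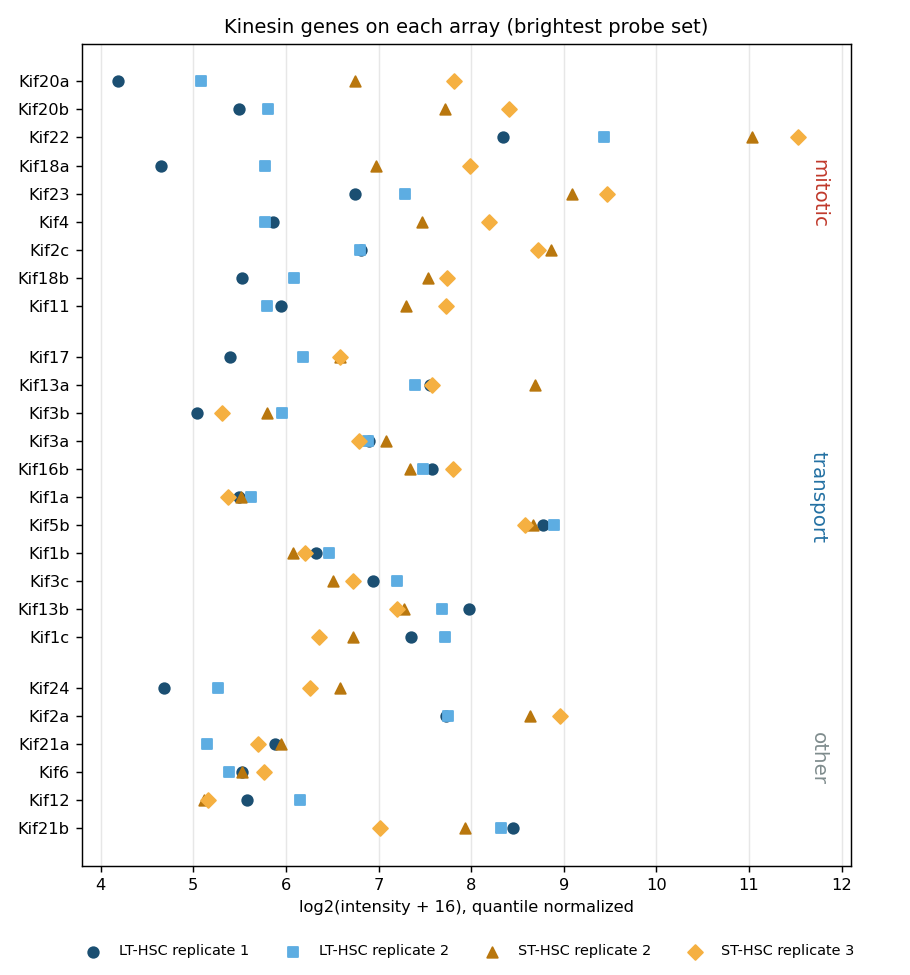
Normalized log2(intensity + 16) of the tested kinesin genes on each of the 4 arrays, grouped by role, with 1 point per array. In the tested mitotic kinesins the 2 ST-HSC points lie above the 2 LT-HSC points. In the tested transport kinesins the order of the groups varies from gene to gene.

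The transport kinesins showed no call. The arrays of the groups overlapped in 4 of the 11 tested, beside 4582 of all 12831 tested genes. Both LT-HSC arrays lay above both ST-HSC arrays in 5 of the 11, beside 3688 of the 12831. The kinesin-1 heavy chain Kif5b, which carries mitochondria and vesicles in most cells, had intensities of 415 and 461 on the LT-HSC arrays and 398 and 366 on the ST-HSC arrays (difference 0.21, SE 0.26, adjusted p = 0.625). Its relatives Kif5a and Kif5c, known best from neurons, were too dim to test. In the kinesin-3 group, the axonal motor Kif1a had intensities of 22.6 and 37.4 against 32.7 and 26.5 (0.11, SE 0.30, adjusted p = 0.826; -0.0049 without normalization). Kif1b, a carrier of mitochondria and synaptic vesicle precursors, had 52.5 and 77.3 against 59.2 and 56.0 (0.26, SE 0.30, adjusted p = 0.603). Kif1c, which moves vesicles, had intensities of 131 and 197 against 102 and 64.1. Both LT-HSC arrays were above both ST-HSC arrays, and the difference of 0.997 (SE 0.33) did not pass (adjusted p = 0.0934).

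Of the kinesin-2 subunits, which work in cilia and in vesicle traffic, Kif3a had intensities of 87.9 and 107 on the LT-HSC arrays and 135 and 92.9 on the ST-HSC arrays (-0.04, SE 0.31, adjusted p = 0.937). Kif3b had 12.3 and 50.7 against 44.9 and 24.8 (-0.06, SE 0.41, adjusted p = 0.933). In both genes the groups overlapped. Kif3c had 91.8 and 134 against 86.2 and 88.3, with both LT-HSC arrays above both ST-HSC arrays (0.46, SE 0.31, adjusted p = 0.362). Kif17, a homodimer of the same group, had intensities of 20.0 and 61.8 on the LT-HSC arrays and 91.9 and 78.0 on the ST-HSC arrays. Its difference of -0.80 (SE 0.36, adjusted p = 0.193) was the most negative of the class. The endosomal motors were mixed: Kif13a, which serves recycling endosomes, differed by -0.66 (SE 0.42, adjusted p = 0.33), with intensities of 156 and 154 against 403 and 174. ST-HSC replicate 2 alone was high there. Kif13b had 222 and 192 against 156 and 130 (0.59, SE 0.30, adjusted p = 0.232). The early-endosome motor Kif16b had 158 and 165 against 163 and 207, an overlap of the groups (-0.04, SE 0.32, adjusted p = 0.944). The SE of the transport kinesins ran from 0.26 to 0.42, and a test that was not passed does not show that the groups are alike.

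The remaining kinesins were few on the tested side. Kif24, which works at centrioles and restrains cilium growth, had intensities of 6.14 and 25.7 on the LT-HSC arrays and 91.9 and 58.8 on the ST-HSC arrays. The groups did not overlap, and Kif24 was lower (-1.45, SE 0.35, adjusted p = 0.042), against a dim level that gives no firm fold. Its LT-HSC mean, log2 4.97, was also under the filter level, and Kif24 did not pass once LT-HSC replicate 1 was dropped (adjusted p = 0.274), nor without LT-HSC replicate 2 (adjusted p = 0.112) or ST-HSC replicate 2 (adjusted p = 0.0581). Kif2a, a depolymerase of spindle poles and neurites, had intensities of 180 and 200 against 391.6 and 487, and its difference of -1.06 (SE 0.29) did not pass (adjusted p = 0.0573), though it did without ST-HSC replicate 2 (adjusted p = 0.00136) or ST-HSC replicate 3 (adjusted p = 0.0146). The tested probe sets of Kif2a disagreed in direction, from -1.06 to 0.22. Kif21b (0.91, SE 0.38, adjusted p = 0.156) and Kif12 (0.73, SE 0.33, adjusted p = 0.192) were on the other side of 0 and did not pass. Without ST-HSC replicate 2, Kif21b was higher (1.40, adjusted p = 0.00114). Kif21a (-0.31, SE 0.36, adjusted p = 0.606) and Kif6 (-0.19, SE 0.30, adjusted p = 0.708) did not pass either. The other 6, Kif7, Kif9, Kif26a, Kif26b, Kif27 and Kif28, were too dim to test.

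Agreement between probe sets was examined because 25 of the 37 genes had several. Of the 63 tested kinesin probe sets, 12 were lower, 1 was higher and 50 did not pass, against 5.44% lower and 6.74% higher among all 27022. Among 16 tested mitotic probe sets, 11 were lower and 5 did not pass. Kif11 had a further probe set that was lower (-2.55, adjusted p = 0.0159) and one that did not pass (-0.84, adjusted p = 0.159). The other tested probe set of Kif20b did not pass (-0.73, adjusted p = 0.209). Kif2c was lower by its brightest probe set alone, whose name marks shared probes, while its other tested ones gave -1.05 (adjusted p = 0.094) and -0.23 (adjusted p = 0.649). The single higher kinesin probe set was a dimmer one of Kif1b, with intensities of 35.1 and 40.1 on the LT-HSC arrays and 4.66 and 9.51 on the ST-HSC arrays (1.34, SE 0.31, adjusted p = 0.0378). Its ST-HSC mean, log2 4.46, was under the filter level, so it passed that filter only through LT-HSC. No gene had probe sets called in opposite directions, and 4 transport kinesins (Kif1b, Kif3c, Kif5b and Kif16b) had tested probe sets of opposite sign.

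**Figure D4:**
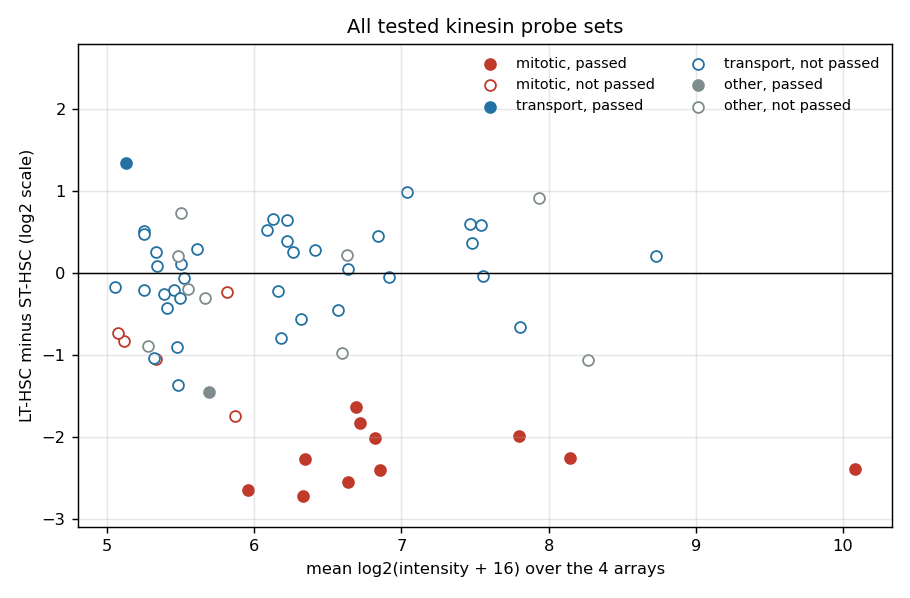
Difference between LT-HSC and ST-HSC (log2) of every tested kinesin probe set, marked by role. All 16 tested mitotic probe sets lie below 0, and the transport probe sets lie on both sides.

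Both ST-HSC arrays lay above both LT-HSC arrays in 9 of 9 tested mitotic kinesins and in 2 of 11 transport kinesins, against 35.5% of all tested genes. The calls of lower genes, among mitotic kinesins and all genes alike, depended on having both LT-HSC arrays. Without LT-HSC replicate 1, 0 of 9 mitotic kinesins passed and 0.0701% of all genes were lower; without LT-HSC replicate 2, 1 of 9 passed (Kif22) and 0.132% were lower. Without ST-HSC replicate 2 or 3, 9 of 9 passed, against 19.3% and 14.8% of all genes. In all 4 cases the 9 differences stayed negative and were at an unadjusted p under 0.05, from -2.20 to -1.51 without LT-HSC replicate 1 and from -3.09 to -1.59 without LT-HSC replicate 2. Without ST-HSC replicate 3, Kif13a was lower (-1.21, adjusted p = 0.00347), and without ST-HSC replicate 2, Kif1c was higher (1.19, adjusted p = 0.0152).

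**Figure D5:**
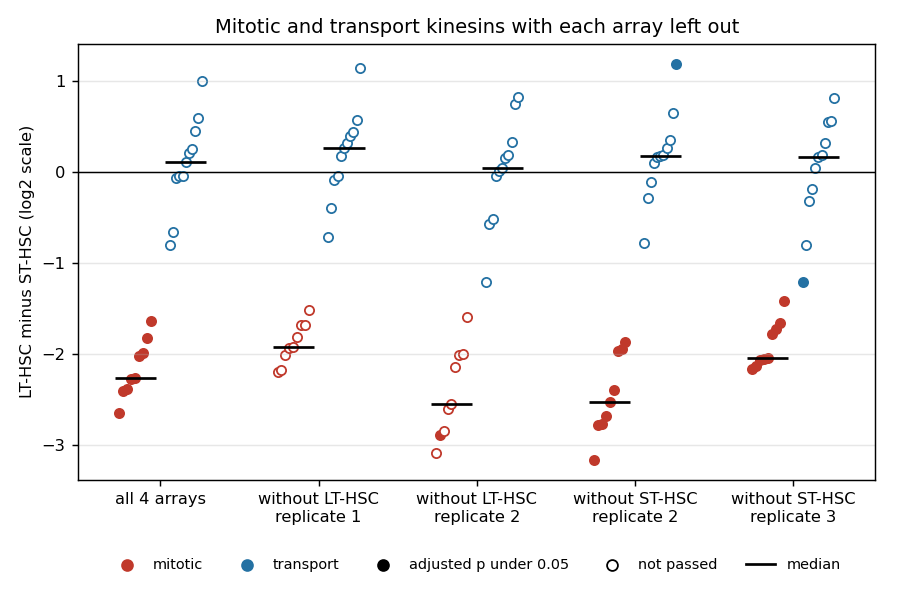
Difference between LT-HSC and ST-HSC (log2) of the mitotic and transport kinesins with all 4 arrays and with each array left out. The 9 mitotic kinesins stay below 0 in every setting shown.

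The partners of the mitotic kinesins include mitotic kinases, centralspindlin and abscission proteins. Of 15 tested partners, 11 were lower, 0 higher and 4 did not pass, at a median difference of -2.20, beside 6.36% lower and 7.97% higher among all tested genes. Cep55, which recruits the abscission machinery, had intensities of 12.2 and 54.7 on the LT-HSC arrays and 527 and 945 on the ST-HSC arrays and was 16-fold lower (-4.00, SE 0.45, adjusted p = 0.00369). The mitotic kinases Aurka (-2.69, adjusted p = 0.0114) and Aurkb (-2.72, adjusted p = 0.0127) and the spindle assembly factor Tpx2 (-2.20, adjusted p = 0.0123) were among the 11. Racgap1, the partner of Kif23, did not pass at its brightest probe set (-1.23), while another of its probe sets was lower (-2.49, adjusted p = 0.00697). Prc1, the partner of Kif4, gave 0.03 at its brightest probe set and was lower at another (-2.20, adjusted p = 0.00896).

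Of 6 motors whose names fall outside the pattern, 1 was lower, 1 was higher and 4 did not pass. Among all tested genes, 6.36% were lower and 7.97% were higher. Cenpe, the kinetochore kinesin, was lower (-2.10, SE 0.31, adjusted p = 0.00987), with intensities of 31.4 and 44.0 against 212 and 253. Kifc1, a minus-end motor, was higher (1.49, SE 0.35, adjusted p = 0.0415), with 106 and 74.5 against 21.9 and 26.2. Its direction was opposite to that of Cenpe and of all tested members of the mitotic class, and both LT-HSC arrays lay above both ST-HSC arrays. The name pattern kept Cenpe and Kifc1 out of that class, so the count of 9 of 9 covers neither. Kifc1 rests on 1 probe set and has a near-identical copy, Kifc5b (-1.04, adjusted p = 0.0824), so its value is uncertain.

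Light chains, adaptors, dynein and tubulins were read against the 6.36% of all tested genes that were lower and the 7.97% that were higher. Of 15 tested light chains and cargo adaptors, 0 passed at a median of 0.09; limma gave 1 at an unadjusted p under 0.05. Of 23 dynein and dynactin genes, 1 was higher, the light chain Dynlrb2 (1.99, adjusted p = 0.012), and 22 did not pass, a share near that of all genes. Of 14 tested tubulins, Tubb5 (-1.48, adjusted p = 0.00256) and Tubb4b (-1.83, adjusted p = 0.0337) were lower and Tubb2b was higher (3.50, adjusted p = 0.00137), and 11 did not pass. Dynlrb2 and Tubb2b had ST-HSC means under the filter level (log2 4.43 and 4.57) and passed it only through LT-HSC.

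Of 23 regulators of late cell cycle genes, 7 were lower, 1 was higher and 15 did not pass, at a median of -0.77, beside 6.36% lower and 7.97% higher among all tested genes. The 4 of smallest adjusted p among those lower were Rbl1 (-1.75, adjusted p = 0.0126), E2f7 (-2.01, adjusted p = 0.0147), Tfdp1 (-1.81, adjusted p = 0.0148) and Nfya (-1.49, adjusted p = 0.0263), the last a subunit of the CCAAT-binding factor. The other listed subunits of that factor, Nfyb (0.0011, adjusted p = 0.999) and Nfyc (-0.01, adjusted p = 0.983), did not pass. E2f5 was higher (1.33, adjusted p = 0.0486). Foxm1, a known activator of late cell cycle genes, differed by -0.03 (adjusted p = 0.963). Of 14 tested genes of cycling cells, 13 were lower, against 6.36% of all tested genes, among them Mcm7 (-2.33, adjusted p = 0.000877) and Top2a (-2.59, adjusted p = 0.00369).

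Markers of other cells were measured beside these results, with 7.97% of all tested genes higher and 6.36% lower in LT-HSC. Of 8 tested B cell markers, 4 rose in LT-HSC, with a summed intensity of 4774 to 5376 in LT-HSC and 374 to 625 in ST-HSC. Of 8 granulocyte markers none passed (limma; 3 at an unadjusted p under 0.05), and their sums ran from 503 to 3825 in LT-HSC and from 3549 to 49854 in ST-HSC. Of 5 tested erythroid markers 1 rose and 1 fell, and of 5 tested T and NK cell markers 2 rose and 1 fell. The 2 that rose, Cd3g and Gzma, had ST-HSC means under the filter level (log2 4.46 and 4.67) and passed it only through LT-HSC. The same held for Blk (log2 4.93) among the B cell markers that rose. No marker with a probe set was at 0 on any array. The part of these markers in the kinesin differences was not tested.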

How the data were processed

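Per the labels' protocols, Trizol-purified RNA went through 2 amplification rounds before biotin labelling with Affymetrix reagents. The authors deposited linear intensity values for each probe set, with probe summary and scaling not given in the sources used here. All 45101 rows were log2 transformed after adding a pseudocount of 16, which understates folds of dim genes, and quantile normalized because array medians spanned 0.33 (limit 0.2). The 64 control rows were then left out, as were probe sets whose mean was not above the 40th percentile, leaving 27022. Groups came from the sample titles. Part of the genotype shared by all animals is not reported here. The groups entered limma 3.58.1 under R 4.3.3 (lmFit, then eBayes with trend; 2 residual degrees of freedom). Benjamini-Hochberg adjustment covered every tested probe set, at 0.05. The script was tested on simulated data. An exact permutation test of 2 against 2 arrays cannot go below p = 0.333, so none was used. The supplied platform annotation gave 1 symbol to 34958 probe sets, several to 932 and none to 9160. All kinesins were accounted for; every passing kinesin and every tested mitotic or transport kinesin was named, and of other lists up to 4 passing genes per direction with the smallest adjusted p. The members, classes and lists were chosen with earlier results of these data known, so no list carries a test of its own. Kit, Prdm1, Kifc5b, Racgap1, Prc1, Foxm1, Nfyb and Nfyc were named beyond that rule after their values were seen. The number of arrays limits the precision. The alternatives were other scalings, pseudocounts, filters, spread models, probe set choices and classes, and leaving out each array.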

Additional observations from a re-analysis of the deposited data

How the results depend on the processing

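The 9 tested mitotic kinesins were lower in LT-HSC under all 12 alternatives that kept the 4 arrays, and 10 of 11 were when Kif2a and Kif24 joined the class. Their median difference was -1.62 with a pseudocount of 64, and with a pseudocount of 1 their differences ran from -4.20 to -1.94, the lowest that of the dim Kif20a. Leaving out 1 array gave 0 to 12 kinesins changed, 0 to 9 mitotic kinesins lower, 0 to 1 transport kinesins lower and 0 to 1 higher, a mitotic median of -2.55 to -1.93 and a transport median of 0.0501 to 0.262. A lone array was then assumed to vary like the other group, and fewer arrays were fitted. Kif24 lost its call with no normalization (adjusted p = 0.0552), a pseudocount of 1 (0.0508), no filter (0.066), and without LT-HSC replicate 1 (0.274), LT-HSC replicate 2 (0.112) or ST-HSC replicate 2 (0.0581); the filter at the 60th percentile left it untested. Kif21b passed as higher without ST-HSC replicate 2 (0.00114). Kif2a passed with no normalization (0.0455) and without ST-HSC replicate 2 (0.00136) or 3 (0.0146). Small differences changed sign, passing the test under neither setting: Kif1a was -0.0049 with no normalization, and Kif16b was 0.0286 with probe sets averaged. Leaving out 1 array gave -0.283 to 0.190 for Kif16b, -0.521 to 0.399 for Kif3b, -0.189 to 0.105 for Kif3a and -0.681 to 0.0650 for Kif21a. For these changes the cause was not tested. Over single genes and alternatives, 373 values kept direction and side of the threshold, 23 lost the call, 6 gained one and 8 changed sign. The median of all genes was -0.13 with no normalization, -0.03 with median centring and 0.00 with upper quartile scaling. No paired analysis was possible because the groups share only replicate number 2.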
